A study of Mus musculus with 15 samples.

Results

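The chromatin response of Arid1a beta cell knockout (KO) islets to partial pancreatectomy (PPx) was read from 1 deposited ATAC-seq comparison, which sets islets taken 6 days after PPx against islets taken before it. Every listed peak was kept once, which left 12767 peaks annotated to 9736 genes. The comparison uses 7 of the 15 libraries of the series: 4 from KO-labelled mice after PPx and 3 from KO-labelled mice before PPx. The KO-labelled mice, male and 3 months old, carried Arid1aFl/Fl, MIP-rtTA and TRE-Cre. In this system a doxycycline-dependent activator under the mouse insulin promoter switches on Cre in beta cells, while the alpha, delta, vascular and other cells of the islet keep Arid1a. All mice of both KO-labelled groups drank doxycycline at 1 g/L for 2 weeks, and those of the operated group had PPx 1 week after its withdrawal. The control islets used for the last comparison came from Arid1aFl/Fl; MIP-rtTA mice without TRE-Cre, 4 mice after PPx and 4 before. The control mice were also 3 months old and given doxycycline at 1 g/L, and their islets after PPx were taken 6 days after it. The labels describe the group before PPx as mice without the operation and mention no sham surgery.

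PPx removes part of the pancreas and is known as a stimulus for the remaining beta cells of rodents to proliferate. ARID1A is the DNA-binding subunit that defines one form of the SWI/SNF complex, an ATP-driven machine that slides or evicts nucleosomes and so opens promoters and enhancers. ATAC-seq reports such openness, because the Tn5 transposase inserts adapters mainly into DNA that is free of nucleosomes.

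Per the labels' protocols each library came from 40000 islet cells, the numbers of mice equal those of libraries, and all libraries were sequenced as 75 bp single-end reads on a single flow cell. The deposited table holds 1 mean per group and peak, as log2 normalised reads over 601 bp, so values of single libraries and their depth are unknown. What the table gives per library is whether the peak was called, as a number of libraries out of 4 after and 3 before PPx. Folds are log2 differences of the deposited means, after minus before PPx. The p-value and the false discovery rate (FDR) are the authors', and the standard error (SE) of a fold was computed from the fold and its p. A peak counts as gained or lost at an FDR of 0.05 or below. The unit of replication is the mouse, so the p-values measure spread between mice.

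The targeted gene had 1 listed peak, in exon 9 of 20 of Arid1a (chr4:133692981-133693581, mm10), and it went against the rest of the table. In the authors' deposited table it averaged 4.04 log2 reads after PPx and 5.26 before, a fold of -1.22 (SE 0.47, FDR 0.0584), and it was called in 3 of 4 libraries after and 3 of 3 before. It was therefore not called as lost. Relative to the median fold of all peaks it was at -2.05 log2 units, with an unadjusted p of 1.2e-05 by a two-sided z test and a Benjamini-Hochberg adjusted p of 0.153, the lowest of the 12767 adjusted values. In the deposited genotype tables, which share these libraries, the KO-labelled minus control fold of this peak was 3.64 after PPx (FDR 0.00201) and 4.28 before (FDR 0.00187). Loss of the gene would not by itself be expected to raise this peak, and the cause of its higher level in KO-labelled islets was not tested. The labels do not say which exon is floxed, so the peak does not settle whether the knockout worked, and whether the genotype labels were exchanged was not tested. The islets are called KO-labelled below, and each genotype comparison holds for the labels as given.

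Almost the whole table was higher after PPx. The median peak had 16.9 normalised reads after PPx and 9.65 before, and the median fold was 0.83 log2 units, or 1.78-fold. The middle 50% of folds ran from 0.58 to 1.08, and the extremes were 3.29 and -1.65. Of the 12767 peaks, 12391 had a fold above 0, 359 a fold below 0 and 17 a fold of exactly 0, and 4004 peaks (31.4%) had a fold above 1. The typical peak was not resolved alone: the median SE was 0.49 log2 units, against a median fold of 0.83. The authors' deposited table has 951 peaks near 933 genes gained (7.45% of all peaks) and 0 lost (0%). Without adjustment, 5027 peaks above 0 and 3 below 0 had a p under 0.05.

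**Figure D1:**
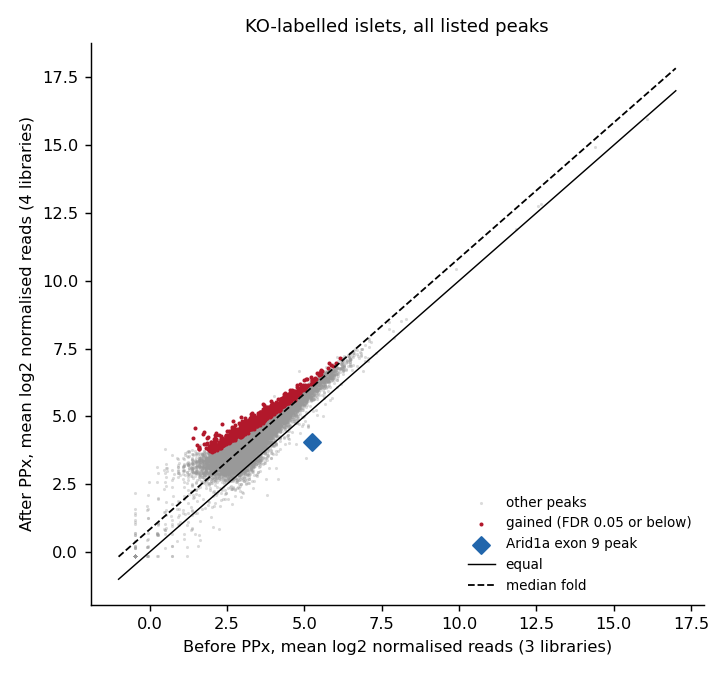
Group mean of each peak after PPx (vertical axis) against before PPx (horizontal axis) in KO-labelled islets, both in log2 normalised reads. Red points are the 951 gained peaks, the solid line marks equal values, the dashed line the median fold of 0.83, and the blue diamond the Arid1a exon 9 peak at 4.04 after and 5.26 before PPx. The points follow the dashed line and not the solid one.

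The gained peaks lie at the upper edge of this common shift. Their folds ran from 0.93 to 3.13 with a median of 1.36, which is 0.53 above the median of all peaks. Peaks of few reads could not be gained: 2669 peaks have a deposited FDR of 1, among them all peaks with a mean concentration below 3.19. Of these 2669 peaks, 532 have an unadjusted p under 0.05. Among the 10098 peaks with an FDR below 1, 9.42% were gained. A plain Benjamini-Hochberg adjustment of the deposited p over all peaks gained 573 (4.49%), of which 541 are among the 951.

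Library calls, which depend on a depth that is unknown here, were shifted too. After PPx 34 peaks (0.266%) were called in 0 of 4 libraries, whereas before PPx 4067 peaks (31.9%) were called in 0 of 3. All 7 libraries shared 3218 peaks. A pattern of 4 of 4 after and 0 of 3 before occurred at 250 peaks, and the reverse pattern of 0 of 4 after and 3 of 3 before at 3 peaks. Of the 951 gained peaks, 722 were called in all 4 libraries after PPx and 262 in none before, with 81 in both sets, while 344 had been called in all 7 libraries.

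**Figure D2:**
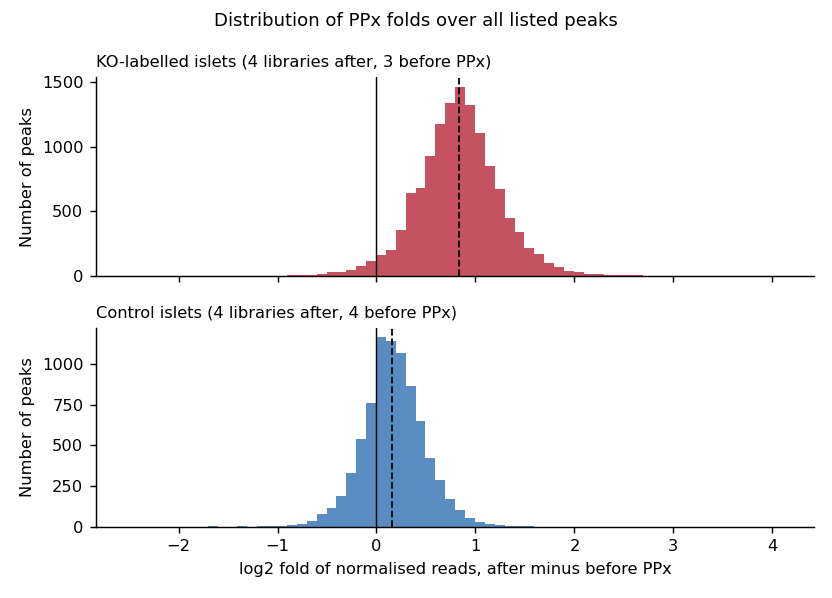
Number of peaks by log2 fold, after minus before PPx, in KO-labelled islets (upper panel, 12767 peaks) and control islets (lower panel, 8070 peaks). Solid lines mark 0 and dashed lines the medians, 0.83 in KO-labelled and 0.16 in control islets. The upper distribution has a single mode and lies almost wholly right of 0.

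The promoters printed here are those on which the single-peak results turn: 4 with a low FDR or a large difference from control (Mrps14, Tubb4b, Spc25, Psmd1), 1 of a cell cycle gene (Cks2), and Pgk1, which had the larger fold in control islets. Each run is the 250 bases before the start site, read 5′ to 3′ on the gene's strand from the RefSeq promoter table (GRCm38.p6, the assembly named mm10 in the deposited data), and each start site lies inside the listed peak. Capitals mark matches on either strand to 3 short promoter motifs. The GC box, GGGCGG, is bound by factors of the SP family. The CCAAT box, named by its letters, is bound by the factor NF-Y. The TATA box was searched as TATAAA and is bound by the TATA-binding protein. None of the 3 can lie within another. ETS, NRF1 and CRE motifs were also searched and had 0 matches in the 6 windows.
Mrps14, chr1:160194965-160195214, + strand: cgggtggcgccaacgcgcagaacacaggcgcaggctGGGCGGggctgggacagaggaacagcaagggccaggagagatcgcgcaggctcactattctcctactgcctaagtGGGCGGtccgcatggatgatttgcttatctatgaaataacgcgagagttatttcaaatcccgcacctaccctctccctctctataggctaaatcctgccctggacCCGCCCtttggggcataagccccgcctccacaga
Tubb4b, chr2:25224703-25224952, - strand: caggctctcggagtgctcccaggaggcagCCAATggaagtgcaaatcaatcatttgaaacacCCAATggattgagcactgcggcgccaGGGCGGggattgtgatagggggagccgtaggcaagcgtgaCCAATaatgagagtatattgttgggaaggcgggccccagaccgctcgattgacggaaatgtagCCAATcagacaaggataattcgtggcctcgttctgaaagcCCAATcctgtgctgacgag
Spc25, chr2:69206214-69206463, - strand: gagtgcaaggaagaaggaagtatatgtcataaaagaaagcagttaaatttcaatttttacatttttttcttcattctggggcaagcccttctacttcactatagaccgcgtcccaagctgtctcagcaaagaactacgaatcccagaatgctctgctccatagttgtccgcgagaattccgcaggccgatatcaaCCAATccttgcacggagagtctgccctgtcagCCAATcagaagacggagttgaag
Psmd1, chr1:86064369-86064618, + strand: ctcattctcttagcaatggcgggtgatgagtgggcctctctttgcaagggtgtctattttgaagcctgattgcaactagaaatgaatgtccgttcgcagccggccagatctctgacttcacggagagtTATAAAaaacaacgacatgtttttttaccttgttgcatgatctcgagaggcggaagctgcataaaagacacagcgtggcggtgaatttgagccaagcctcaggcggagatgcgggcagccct
Cks2, chr13:51644982-51645231, + strand: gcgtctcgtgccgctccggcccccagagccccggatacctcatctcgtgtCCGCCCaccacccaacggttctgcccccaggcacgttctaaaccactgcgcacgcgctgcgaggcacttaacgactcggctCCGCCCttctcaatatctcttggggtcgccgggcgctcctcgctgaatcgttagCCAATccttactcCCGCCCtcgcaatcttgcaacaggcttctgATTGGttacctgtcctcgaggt
Pgk1, chrX:106186850-106187099, + strand: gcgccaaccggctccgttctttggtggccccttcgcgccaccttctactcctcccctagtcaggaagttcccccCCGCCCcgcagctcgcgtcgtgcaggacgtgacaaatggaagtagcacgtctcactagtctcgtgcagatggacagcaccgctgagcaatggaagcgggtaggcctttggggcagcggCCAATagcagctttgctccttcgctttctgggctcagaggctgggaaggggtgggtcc

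A GC box occurs in 32.7%, a CCAAT box in 33.8% and a TATA box in 12.4% of the 32851 RefSeq windows of this length. The Mrps14 window holds 3 GC boxes, the Tubb4b window 5 CCAAT boxes and 1 GC box, and the Spc25 window 2 CCAAT boxes. The Cks2 window holds 3 GC boxes and 2 CCAAT boxes, the Pgk1 window 1 of each, and the Psmd1 window a single match to TATAAA. All of these are matches of letters at any place in the window, and whether a factor binds them was not tested. The 6 windows, at 45.2% to 62.8% G and C, thus share no one of these motifs. Over all promoter peaks within 1 kb of a start site, 4793 of 7656 (62.6%) could be matched by symbol and position to a RefSeq start, which is too few for a check of motifs or base composition over the whole set, and none was made.

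The lowest FDR in the table, 0.0077, was shared by 5 peaks. An intergenic peak near the predicted gene Gm24869 (chr4:102691260-102691860) averaged 4.37 log2 reads after PPx and 1.74 before in the authors' deposited table, a fold of 2.63. The Morn2 promoter (chr17:80289925-80290525) averaged 4.96 log2 reads after PPx and 2.94 before in the authors' deposited table, a fold of 2.03 (SE 0.43), and it was called in 4 libraries after and 1 before. The same peak holds the start of Dhx57, so the signal cannot be assigned to one gene. The Nedd8 promoter (chr14:55671868-55672468) averaged 4.44 after and 1.75 before, a deposited fold of 2.69 (SE 0.57), called in 4 libraries after and 0 before. Nedd8 encodes the ubiquitin-like protein that activates cullin ligases, and its peak also holds the start of Gmpr2. The Mrps14 promoter (chr1:160194841-160195441), of a mitochondrial ribosomal protein gene, averaged 5.46 after and 3.65 before, a deposited fold of 1.80 (SE 0.39). An intergenic peak assigned to Csnk1a1 (chr18:61596958-61597558), which encodes casein kinase 1 alpha, averaged 4.20 after and 1.41 before, a deposited fold of 2.79 (SE 0.60). Of these 5 peaks, Mrps14 was called in all 7 libraries and the others in 1 library or none before PPx. Further promoter peaks named below also hold the start of another gene and cannot be assigned to one. They are Pex3 (with Adat2), Skp2 (Lmbrd2), Nfkbib (Sirt2), Gsk3b (BC031361), Kmt5c (Gm42369), Pdpk1 (Gm33409) and Edem1 (Gm35417).

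The next smallest FDRs belonged to genes of varied function. Champ1, which encodes a protein of chromosome alignment, averaged 4.72 after and 2.35 before in the authors' deposited table (fold 2.37, SE 0.53, FDR 0.0114). Spc25, a subunit of the kinetochore NDC80 complex, averaged 5.12 after and 3.32 before (deposited fold 1.80, SE 0.42, FDR 0.0192). Tubb4b, a beta-tubulin, averaged 5.88 after and 4.39 before (deposited fold 1.49, SE 0.35, FDR 0.0192). Promoters of Creg1, a lysosomal glycoprotein, and Pex3, needed to build peroxisomes, had deposited folds of 1.80 (SE 0.43) and 1.61 (SE 0.39), both at an FDR of 0.023. The second intron of Olfm4, which encodes the secreted olfactomedin 4, averaged 4.20 after and 1.85 before (deposited fold 2.36, SE 0.56, FDR 0.0192). These genes were taken by rank and not as a list, so no theme is drawn from them.

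The largest gained fold, 3.13 (SE 0.87, FDR 0.0282), belonged to a peak downstream of Osgep, a gene of tRNA modification, which averaged 4.59 after PPx and 1.46 before in the authors' deposited table. The next 7 by the naming rule, which leaves out predicted and microRNA genes, were Csnk1a1, Nedd8, Mtcl1, Champ1, Olfm4, Rpl21-ps14 and Mid1, with folds of 2.28 to 2.79. Each of these 8 peaks averaged at most 2.35 log2 reads before PPx, so large folds stood on low starting levels.

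At the other end of the scale, the gained peaks with the most reads had small folds. The Hnrnpc promoter, of an RNA-binding protein that packages nuclear transcripts, averaged 7.16 after PPx and 6.15 before in the authors' deposited table (fold 1.01, SE 0.34, FDR 0.0439). Hsd17b12, an enzyme of fatty acid elongation, averaged 6.98 after and 6.03 before (deposited fold 0.95, SE 0.33, FDR 0.0467). Kmt5c, a histone H4 lysine methyltransferase, averaged 6.96 after and 5.81 before (deposited fold 1.15, SE 0.34, FDR 0.0343). Gsk3b, the kinase that restrains beta-catenin and glycogen synthesis, averaged 6.87 after and 5.93 before (deposited fold 0.94, SE 0.32, FDR 0.0451). These folds exceed the table median by 0.11 to 0.32 log2 units, which is less than their SE.

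**Figure D3:**
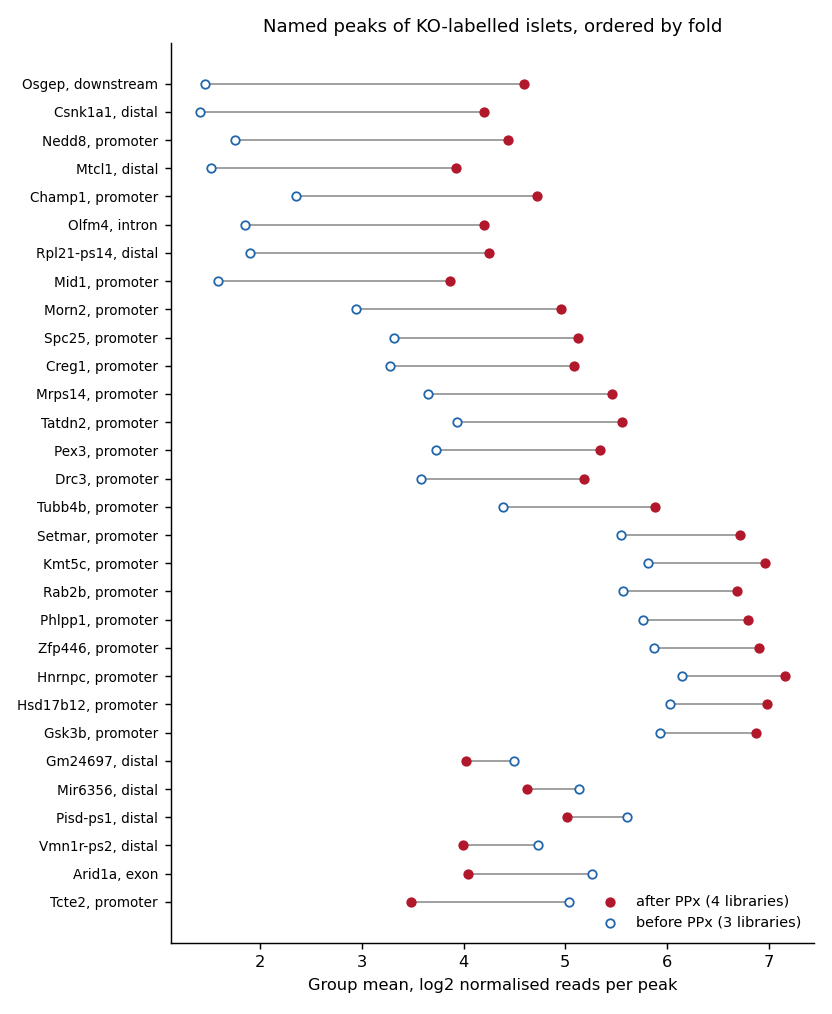
Group means in log2 normalised reads of the peaks named for the smallest FDR, the largest fold, the highest level after PPx or the lowest fold, with Arid1a, after PPx (filled red) and before PPx (open blue), ordered by fold from Osgep (3.13) at the top to Tcte2 (-1.56) at the bottom. Peaks with the largest folds start at or below 2.35 before PPx, and the 8 promoters with the most reads have folds near 1.

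Few peaks had a fold below 0, and none of these passed the test. Among peaks of at least the median concentration, the lowest fold was at a promoter of Tcte2, which averaged 3.48 after PPx and 5.04 before in the authors' deposited table (fold -1.56, SE 0.97, FDR 0.174). Arid1a was next, followed by Vmn1r-ps2 (-0.74), Pisd-ps1 (-0.58), Mir6356 (-0.50) and Gm24697 (-0.48), all at deposited FDRs of 0.195 or more. Of the 6393 peaks at this level or higher, 57 had a fold below 0. Of these 57, 26 (45.6%) carry a pseudogene, microRNA or predicted-gene symbol, against 16.8% of all peaks of at least that concentration, and 12 (21.1%) are promoters, against 78.7%.

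The strongest peaks had folds below the median. The 6 peaks with a mean concentration of at least 9 are annotated to Gm10222, Gm10800, Gm10801, Chl1, Pak3 and Gm5614, were called in all 7 libraries, and had deposited folds of -0.10 to 0.54. Gm10222, at 15.97 log2 reads after PPx and 16.07 before on chromosome 1, is the highest of these. Whether the reads of these 6 peaks map uniquely was not tested, so they are not taken as the most open sites. The strongest 1% of peaks, 127 in number, had a median fold of 0.63. Over deciles of concentration, the median fold lay between 0.72 and 0.87, while gained peaks numbered 0 in each of the lowest 2 deciles, 191 of 1277 in the ninth and 143 of 1277 in the top one.

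All kinds of sites had a median fold above 0, with the lowest in untranslated regions (0.72, 92 peaks) and the highest just downstream of genes (0.94, 66 peaks). Promoter peaks, within 3 kb of a start, had a median fold of 0.86 (8033 peaks) and other peaks one of 0.77 (4734 peaks), a gap of 0.09 log2 units that is small against the median SE of 0.49. On 18 of 21 chromosomes and in 10 of 10 deciles of concentration the promoter median was the larger. Of the promoter peaks 782 (9.73%) were gained, and of the other peaks 169 (3.57%). The read level moved with this contrast, at a median concentration of 4.06 for promoters and 3.41 elsewhere. Among peaks with an FDR below 1 the shares were 11.1% and 5.49%. Within 1 kb of a start 761 of 7656 peaks were gained, in later introns 52 of 1118, in the first intron 17 of 401, and in intergenic DNA 91 of 2866. Where a gene had both promoter and other peaks, the promoter was higher in 673 of 1374 genes (49.0%), with a median difference of -0.01 between the 2 kinds of site. Chromosome medians ran from 0.79 to 0.91 outside the Y chromosome, whose median of 0.34 comes from peaks at the lowest value of the table.

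Of 2008 genes with at least 2 listed peaks, 18 had at least 2 gained. Btg2, which encodes an antiproliferative protein, had 2: an intergenic peak with 5.45 log2 reads after PPx and 4.19 before in the authors' deposited table (fold 1.25, FDR 0.0339), and one just downstream with 5.23 after and 4.06 before (fold 1.17, FDR 0.0406). Eif2ak3 encodes PERK, the kinase that slows translation under endoplasmic reticulum stress. Its second intron had 4.72 after and 3.20 before (deposited fold 1.52, FDR 0.0353) and an intergenic peak 4.98 after and 3.64 before (deposited fold 1.35, FDR 0.0426). The stronger Eif2ak3 promoter, at 7.43 after and 6.71 before, had a deposited fold of 0.72 (FDR 0.111). Creb1, Dyrk3, Iqgap1 and Rapgef4 are further genes with 2 gained peaks, chosen for mention after their values were seen.

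Gene lists were read against 2 values of the whole table, the median fold of 0.83 and the gained share of 7.45%. No list lost a peak, no list had a median below 0, and the 466 listed peaks together gained 50 (10.7%). List medians among lists of at least 3 peaks ran from 0.34 to 1.04, at most 0.49 from the table median.

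**Figure D4:**
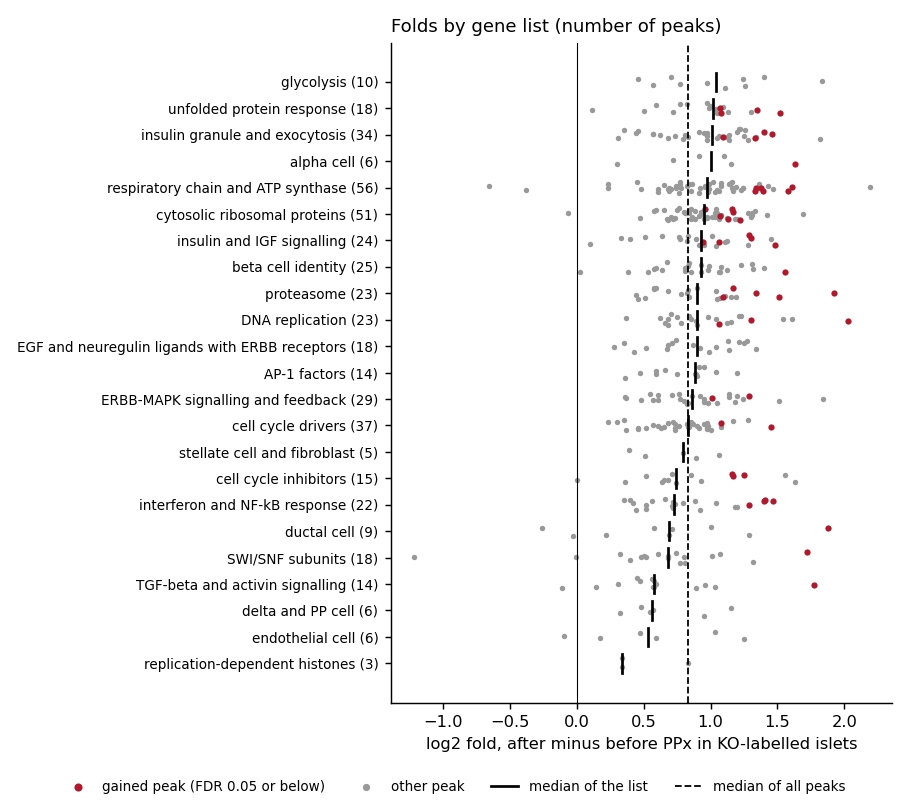
Log2 fold of every peak of the gene lists with at least 3 peaks in KO-labelled islets, after minus before PPx, with the number of peaks in brackets. Red points are gained peaks, short bars list medians and the dashed line the median of all 12767 peaks, 0.83. Points of nearly every list straddle the dashed line, and the Arid1a peak stands alone at -1.22 among SWI/SNF subunits.

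Beta cell genes stayed near the rest of the table. Of 25 peaks near 15 of the 30 beta cell identity genes, 1 was gained (0 by plain Benjamini-Hochberg adjustment) and the median fold was 0.93. That peak lies in the second intron of Slc30a8, the zinc transporter of insulin granules, and averaged 4.43 after PPx and 2.88 before in the authors' deposited table (fold 1.56, SE 0.54, FDR 0.0484), called in 2 libraries after and 0 before. The Ins1 promoter, of an insulin gene, averaged 5.64 after and 4.81 before (deposited fold 0.83, FDR 0.092), equal to the table median. The Nkx6-1 promoter, of a transcription factor of mature beta cells, averaged 4.84 after and 3.86 before (deposited fold 0.99, FDR 0.0628). Pax6 averaged 6.43 after and 5.84 before (deposited fold 0.59, FDR 0.185), and the Mafa promoter 3.81 after and 3.14 before (deposited fold 0.67, FDR 0.278). An intergenic Isl1 peak was at 3.60 after and 3.58 before, a deposited fold of 0.02 (SE 0.52). No peak of Ins2, Pdx1, Neurod1, Slc2a2 or Ucn3 was listed, so the beta cell nature of the sample rests here on the peaks of Ins1, Nkx6-1, Mafa and G6pc2.

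Genes of the insulin granule had a median fold of 1.01 over 34 peaks, all 34 above 0, and 4 were gained (2 by plain Benjamini-Hochberg adjustment). Chgb, a granule matrix protein, averaged 4.24 after PPx and 2.78 before at its promoter in the authors' deposited table (fold 1.46, SE 0.50, FDR 0.0474). Scg5, the chaperone of prohormone convertase 2, averaged 4.97 after and 3.57 before (deposited fold 1.40, SE 0.42, FDR 0.0351). Rims2, an organiser of vesicle release sites, averaged 4.96 after and 3.63 before (deposited fold 1.33, SE 0.43, FDR 0.0406). Cpe, the carboxypeptidase that trims insulin precursors, averaged 6.07 after and 4.98 before in its first intron (deposited fold 1.09, SE 0.37, FDR 0.0467). The promoter of the same gene averaged 5.65 after and 5.08 before, a deposited fold of 0.57 (FDR 0.178).

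SWI/SNF subunits had a median of 0.68 over 18 peaks, and 4 of the 18 lay above the table median. The 1 gained peak was in an intron of Arid1b, the paralog that can take the place of ARID1A in the complex. It averaged 4.10 after PPx and 2.38 before in the authors' deposited table (fold 1.72, SE 0.52, FDR 0.0353) and was called in 3 libraries after and 0 before. The other 2 Arid1b peaks had deposited folds of 0.80 and 0.32. Promoters of the ATPase genes Smarca4 and Smarca2 had deposited folds of 0.68 and 0.77, at FDRs of 0.193 and 0.138.

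Growth factor genes of the EGF and neuregulin family with their ERBB receptors had 18 peaks, 0 of them gained at the authors' FDR and 0 by Benjamini-Hochberg adjustment, with a median of 0.90. The lowest deposited FDR was 0.056, in the first intron of Nrg3, a neuregulin that binds ERBB4 (4.47 after, 3.34 before, fold 1.13, SE 0.43). The Areg promoter, of the EGF receptor ligand amphiregulin, averaged 4.62 after and 3.58 before in the authors' deposited table (fold 1.04, FDR 0.0763). Egfr itself averaged 4.44 after and 3.72 before at its promoter (deposited fold 0.71, FDR 0.187), and Hbegf 3.61 after and 3.32 before (deposited fold 0.28, FDR 0.64). Downstream of these receptors, 2 of 29 peaks were gained (1 by plain adjustment), at 2 feedback inhibitors of the MAP kinase pathway. An intergenic peak of the phosphatase gene Dusp4 averaged 4.95 after and 3.65 before (deposited fold 1.29, SE 0.40, FDR 0.0365), and the Spry2 promoter 6.00 after and 4.99 before (deposited fold 1.01, SE 0.35, FDR 0.0485). AP-1 factor genes, end points of this pathway, had 14 peaks and 0 gained by either adjustment, with Fos at deposited folds of 0.75 to 1.04 in 4 peaks. A Fosb promoter peak averaged 5.99 after and 5.10 before (deposited fold 0.89, FDR 0.0735) although the table lists it as called in 0 of 4 libraries after and 2 of 3 before.

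Cell cycle genes lay close to the whole table. Drivers had 37 peaks, 2 gained (1 by plain Benjamini-Hochberg adjustment), and a median of 0.83, the same as all peaks. Cks2, a subunit of cyclin-dependent kinases, averaged 5.05 after PPx and 3.60 before at its promoter in the authors' deposited table (fold 1.45, SE 0.41, FDR 0.0282). Skp2, the ligase subunit that marks p27 for destruction, averaged 6.11 after and 5.03 before (deposited fold 1.08, SE 0.37, FDR 0.0467). The Mki67 promoter, of the proliferation marker Ki-67, averaged 3.56 after and 2.84 before (deposited fold 0.72, FDR 0.234), and Ccna2 5.89 after and 5.17 before (deposited fold 0.73, FDR 0.124). Replication genes had 23 peaks, 3 gained (1 by plain adjustment), and a median of 0.90. Rfc4, a subunit of the clamp loader, averaged 4.17 after and 2.14 before (deposited fold 2.03, SE 0.55, FDR 0.0282), called in 4 libraries after and 0 before. Mcm10, needed to start replication forks, averaged 4.66 after and 3.36 before (deposited fold 1.30, FDR 0.0433). Inhibitors of the cell cycle had 15 peaks, 3 gained (both Btg2 peaks and Cdkn2d), and a median of 0.74. Cdkn2d, which encodes the CDK4 and CDK6 inhibitor p19, averaged 6.08 after and 4.92 before (deposited fold 1.16, SE 0.36, FDR 0.0386), while Cdkn1c was at 2.94 in both groups.

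Insulin and IGF signalling had 24 peaks and 5 gained, all at promoters, with a median of 0.93. By plain Benjamini-Hochberg adjustment 1 of the 24 was gained, Rheb. Rheb, the GTPase that activates mTORC1, averaged 5.95 after PPx and 4.67 before in the authors' deposited table (fold 1.29, SE 0.37, FDR 0.0289). Akt2 averaged 4.20 after and 2.72 before (deposited fold 1.48, SE 0.51, FDR 0.0472) and Pdpk1, the kinase that activates AKT, 4.62 after and 3.32 before (deposited fold 1.30, SE 0.44, FDR 0.0441). Gsk3a was gained beside Gsk3b, at 5.79 after and 4.73 before (deposited fold 1.06, FDR 0.0491). The unfolded protein response had 18 peaks and 4 gained, near 3 genes, with a median of 1.02. By plain Benjamini-Hochberg adjustment 1 of the 18 was gained, the Eif2ak3 intron. Besides Eif2ak3 these were the promoters of Hspa5, the main chaperone of the endoplasmic reticulum, at 5.78 after and 4.70 before (deposited fold 1.08, SE 0.37, FDR 0.0468), and of Edem1, at 6.52 after and 5.46 before (deposited fold 1.07, FDR 0.0483). TGF-beta and activin signalling had a lower median, 0.57 over 14 peaks, with 1 gained: the promoter of the receptor gene Bmpr2, at 3.92 after and 2.16 before (deposited fold 1.77, SE 0.56, FDR 0.0387).

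Lists of respiratory, ribosomal, proteasome and glycolysis genes had medians above that of the table, as did several of the lists above. The interferon and histone lists had medians below it. Subunits of the respiratory chain and ATP synthase had 56 peaks, 6 gained, and a median of 0.97. Ndufv2, a subunit of complex I, averaged 5.36 after PPx and 3.78 before in the authors' deposited table (fold 1.58, SE 0.40, FDR 0.023), and Atp5b, the catalytic subunit of ATP synthase, 5.34 after and 4.01 before (deposited fold 1.33, SE 0.37, FDR 0.0282). The other 4 were Uqcrq, Ndufs1, Uqcr10 and Uqcrh. Cytosolic ribosomal proteins had 51 peaks, 6 gained, and a median of 0.95, with the lowest FDR at Rpl10 (deposited fold 1.22, FDR 0.0386). By plain Benjamini-Hochberg adjustment 1 of the 51 was gained. Proteasome subunits had 23 peaks and 5 gained (3 by plain Benjamini-Hochberg adjustment), with a median of 0.90. Psmd1, a scaffold subunit of the regulatory particle, averaged 4.68 after and 2.76 before (deposited fold 1.92, SE 0.47, FDR 0.023), called in 4 libraries after and 0 before. Glycolysis had 10 peaks, 0 gained, and the highest median among lists of at least 3 peaks, 1.04, with the largest fold at Pgk1, at 6.67 after and 4.84 before (deposited fold 1.83, SE 0.65, FDR 0.0503). Interferon and NF-kB genes had 22 peaks and 4 gained, with a median of 0.72. Those 4 were Relb, an NF-kB subunit (deposited fold 1.29, FDR 0.0394), and 3 inhibitors of the pathway. Among the inhibitors, Nfkbia averaged 4.82 after and 3.42 before (deposited fold 1.41, FDR 0.0349) and Nfkbib 4.94 after and 3.53 before (deposited fold 1.40, FDR 0.0295). An intergenic peak of Tnfaip3, the third inhibitor, averaged 5.22 after and 3.76 before (deposited fold 1.47, FDR 0.0247). Replication-dependent histone genes had 3 peaks and a median of 0.34, and Hist1h2ao and Hist1h2ap sat at the lowest value of the table in both groups although called in all 7 libraries.

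Markers of other cell types were sparse, and all but 3 of their peaks, 2 ductal and 1 endothelial, had a fold above 0. In bulk islets fewer cells of a type and less accessibility per cell cannot be told apart. None of the 14 acinar marker genes had a listed peak. Beta cell genes such as Ins2 and Pdx1 had none either, so this does not show that exocrine tissue was absent. Alpha cell markers had 6 peaks near 5 of 12 genes, with summed levels of 6.51 log2 reads after PPx and 5.55 before in the authors' deposited table, and 1 gained peak at Slc7a2 (deposited fold 1.63). The Gcg promoter, of glucagon, averaged 3.70 after and 3.40 before (deposited fold 0.30, FDR 0.749). Delta and PP cell markers had 6 peaks near 4 of 10 genes (summed 8.19 after, 7.59 before) and 0 gained, with Sst at 5.37 after and 4.82 before (deposited fold 0.55, FDR 0.218). Ductal markers had 9 peaks near 4 of 12 genes (summed 7.31 after, 6.69 before) and 1 gained, at the Epcam promoter (deposited fold 1.88, not gained by plain adjustment, called in 2 libraries after and 0 before). Endothelial markers had 6 peaks near 6 of 16 genes (summed 6.57 after, 6.00 before) and stellate or fibroblast markers 5 near 4 of 13 (summed 6.27 after, 5.59 before), with 0 gained in either. Leukocyte markers had 2 peaks near 2 of 14 genes (summed 4.79 after, 3.78 before), of which the one near Csf1r was gained, at 4.03 after and 2.02 before (deposited fold 2.01, FDR 0.0282). The 1 Schwann cell peak, near Cdh19, was at 3.44 after and 1.65 before (deposited fold 1.79, FDR 1). Genes with no listed peak included Ttr and Irx1 among alpha cell markers, Ppy and Hhex among delta and PP cell markers, and Krt19 and Sox9 among ductal ones. They also included the endothelial Pecam1 and Kdr, the stromal Pdgfrb and Col1a1, the leukocyte Cd68 and Adgre1, and the Schwann cell Sox10. Summed levels differed by 0.58 to 1.79 log2 units between the groups, around the table median, and their part in the results was not tested.

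How much of the common shift lies in the peaks and how much in the scale of the libraries cannot be told apart with group means, but the table holds 1 internal value. The lowest mean of each group was -0.13 log2 reads after PPx and -0.47 before, and 162 peaks, 64 of them on the Y chromosome, sat at both of these values. At those peaks the fold is 0.34, which is 0.49 below the median fold of 0.83. It is a difference of 2 minima, so it does not divide the shift into a part of scale and a part of the peaks. In the control table the fold at the lowest values was 0.09, below its median fold of 0.16 by 0.07. Where peaks of identical position appear in 2 tables, the mean of one group differs between the tables by a single constant, equal to the difference of the minima: for KO-labelled libraries before PPx it was -0.23 at all 157 such peaks, and for those after PPx 0.00 at all 2762. The tables are therefore on 1 scale apart from a constant per table. With 0.34 subtracted from every fold, a step chosen after the data were seen, 0 peaks passed the z test after Benjamini-Hochberg adjustment (lowest adjusted p 0.207). Without adjustment, 1364 peaks above 0.34 and 7 below it had a p under 0.05.

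Relative to the table median no peak passed the test. After 0.83 was subtracted from every fold, 0 of 12767 peaks (0%) passed the z test in either direction after Benjamini-Hochberg adjustment. Without adjustment, 95 peaks above the median and 126 below it had a p under 0.05, which is 1.73% of the table. That share is smaller than unchanged peaks would give at a threshold of 0.05 with a fitting SE. The SE is therefore large for centred folds, the test is conservative, and a count of 0 does not show that no peak differs. Morn2 exceeded the median by 1.20 log2 units (SE 0.43), Nedd8 by 1.86 (SE 0.57) and Osgep by 2.30 (SE 0.87), and none of these passed. With the SE of each peak replaced by the median SE of peaks of like concentration, 4 passed, Osgep above the median and Tcte2, Arid1a and Smo below it.

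With the genotype labels taken as given, control islets were used to ask whether the response differs with genotype, since the control table shares no library with that of the KO-labelled islets. In controls the authors' deposited table lists 8070 peaks with a median fold of 0.16, and 0 peaks were called in either direction (0%), with a lowest FDR of 0.619. Without adjustment, 196 control peaks above 0 and 8 below 0 had a p under 0.05. Of the 12767 peaks of the KO-labelled islets 7535 (59.0%) overlapped 1 control peak, and at these the median fold was 0.83 in KO-labelled islets and 0.16 in control islets. The fold was larger in KO-labelled islets at 92.8% of matched peaks, with a median difference of 0.65 log2 units. At single peaks the difference was not resolved. On the deposited folds 0 of 7535 passed a z test of the difference after Benjamini-Hochberg adjustment (lowest adjusted p 0.156), with 1030 larger and 6 smaller in KO-labelled islets at an unadjusted p below 0.05. After each table was centred on its median 0 passed again (0%), with a lowest adjusted p of 0.629, and 53 larger and 61 smaller differences had an unadjusted p below 0.05. These were 1.51% of matched peaks, again a smaller share than unchanged peaks would give at that threshold with a fitting SE. The median SE of a difference was 0.58, so a difference of about that size at 1 peak was not detectable here.

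Across the 7535 matched peaks Pearson's r between the folds of the genotypes was 0.014 and Spearman's rho 0.011, a description over peaks that share libraries and are not independent. Of the 951 gained peaks 781 were matched, and in control islets these had a median fold of 0.16, the median of all matched peaks, with 569 above 0. The 5232 unmatched peaks had a median fold of 0.84 and fewer reads, with a median concentration of 3.27 against 4.32 at matched peaks, and 59.6% of them were called in 0 libraries before PPx, against 12.6%.

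**Figure D5:**
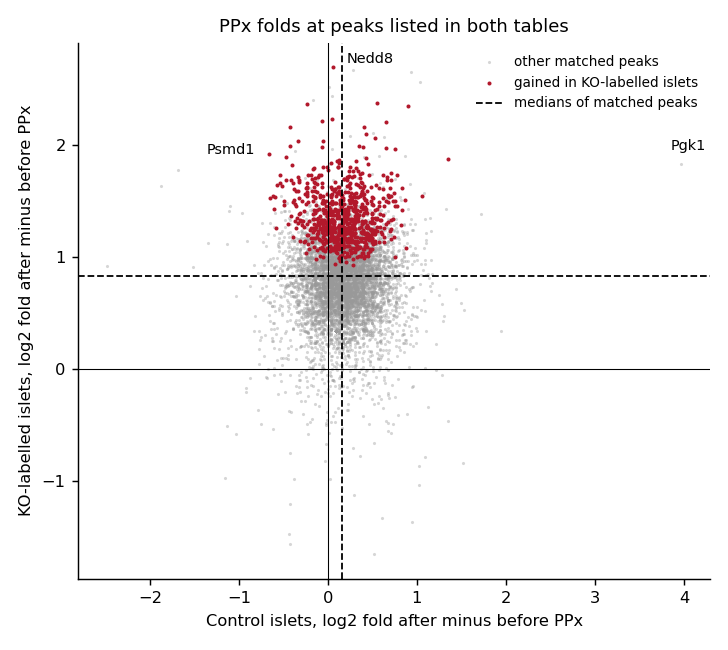
Log2 fold after minus before PPx in KO-labelled islets (vertical axis) against control islets (horizontal axis) at the 7535 peaks listed in both tables. Dashed lines mark the medians of 0.83 and 0.16, and red points are peaks gained in KO-labelled islets. The cloud shows no slope, at folds whose spread is no wider than their SEs would give, with Pgk1 far to the right and Psmd1 at the upper left.

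The differences with the smallest unadjusted p run both ways. At the Psmd1 promoter (chr1:86064228-86064828) the deposited fold was 1.92 (SE 0.47) in KO-labelled islets and -0.66 (SE 0.39) in control islets, an unadjusted p of the centred difference of 0.00194. Nedd8, printed by position above, had 2.69 (SE 0.57) in KO-labelled and 0.06 (SE 0.44) in control islets. The Dyrk3 promoter, of a kinase that dissolves stress granules, had 2.16 (SE 0.55) in KO-labelled and -0.42 (SE 0.45) in control islets. In the opposite direction the Pgk1 promoter (chrX:106186624-106187224), of a glycolytic enzyme, had 1.83 (SE 0.65) in KO-labelled and 3.97 (SE 0.30) in control islets, with an unadjusted p of 8.34e-05 and an adjusted p of 0.629. The deposited KO-labelled minus control folds at Pgk1, from tables that share these libraries, were -2.08 after PPx and 0.09 before, and neither was called. The other 4 lower differences were at Gm23255, Gm24697, Gm26923 and Gm10354, and each of the 8 named here had an adjusted p of 0.629 or more.

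The 2 genotype tables share libraries with this comparison, so their values are given side by side only. The Morn2 promoter had a KO-labelled minus control fold of 1.11 after PPx and -0.99 before, Mrps14 1.05 and -0.74, and Psmd1 1.59 and -1.15. The Slc30a8 intron, gained in KO-labelled islets after PPx, had -0.15 after PPx and -1.45 before. Skp2 had 0.74 and -0.03, and Gsk3b 0.87 and -0.01, at the same 2 times. The peaks gained after PPx thus include some with a fold below 0 against controls before PPx and some with a fold near 0. None of these folds before PPx was called. The mean of KO-labelled islets before PPx enters both comparisons, so a low value there raises the PPx fold and lowers the fold against controls.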

How the data were processed

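ATAC-seq libraries from mouse islets were grouped by genotype and time as their titles give them. The submitters' processing notes name ChIPseeker, DiffBind, MACS, BWA and cutadapt with the build mm10; versions, settings and normalisation are not given in the sources used here. Values are log2 group means of normalised reads and log2 folds, as the authors deposited them. The authors also deposited a p-value and an FDR per peak, from a test the file headers do not name. Counts in the deposited table are numbers of libraries in which a peak was called. Of 17355 rows, 4588 repeats were dropped, and deposited folds, given as before minus after, were turned round.

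The SE of a fold was its size over the normal quantile of the deposited p. The median SE of 1 of 40 concentration bins replaced it for 266 peaks with a fold under 0.1 or a p of 0.95 or more. The same rule was applied to the control folds. Centred folds, and differences from control at peaks overlapping by at least 1 bp, were tested by two-sided z tests with Benjamini-Hochberg adjustment, checked on simulated data (Python 3.11.15, numpy 2.4.6, pandas 2.3.3, scipy 1.17.1). The simulated noise was independent between peaks and drawn with the same SE, so it could not show an SE too large for centred folds. No per-library depth or interval could be had.

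Named peaks were Arid1a, the 12 smallest FDRs, the 8 largest folds and 8 highest levels among gained peaks (each 1 per gene, without predicted, Rik or microRNA genes), the 6 lowest and 6 highest folds at or above the median concentration, the 5 differences each way with the smallest p, and up to 4 per list. Some peaks that the rule names are not reported here. Other peaks were chosen after their values were seen. Members and lists were chosen with earlier results of these data known. Alternatives varied the FDR threshold, adjustment, filters, centring, SE and overlap.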

Additional observations from a re-analysis of the deposited data

How the results depend on the processing

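The number of gained peaks depends on the threshold and on the centring. The median fold stayed between 0.83 and 0.86 in the 5 other peak sets tried. These sets come from the same table, where nearly all folds are above 0, so they could not have changed its direction. None of them varied the scale of the libraries. Against 951 gained and 0 lost, the count was 5 gained at an FDR of 0.01, 3972 gained and 1 lost at 0.10, 573 gained with Benjamini-Hochberg adjustment over all peaks, and 1459 gained and 1 lost among peaks of at least the median concentration with their own adjustment. It was 0 gained after centring on the table median and 0 after subtracting the difference of 0.34 at the lowest values, an alternative chosen after seeing the data; here the subtraction itself removes the calls. Keeping repeats (1180), taking 1 peak per gene (835), requiring 3 libraries (881) or autosomes alone (913) stayed within 1.5 times.

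Relative to the median the counts were 0 except with the bin median SE, which gave 1 gained and 3 lost, and the difference from control had 1 lost under that SE; the cause was not tested. Centring on the median reversed 5 of 111 named folds, Hbegf (-0.55), the intergenic Myc peak (-0.60), Isl1 (-0.81), Hist1h2ao (-0.49) and Hist1h2ap (-0.49), and ended 68 calls. Benjamini-Hochberg adjustment ended 23 named calls and added Ndufa10.

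No paired analysis was possible because sample numbers are not shared between groups and only group means were used. Leaving out single libraries could not be run for the same reason, so whether 1 mouse decides a fold is unknown. All peaks with a concentration below 3.19 have a deposited FDR of 1, and library depth is unknown.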
